A study of Mus musculus with 12 samples.

Results

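Chemokine ligand genes were followed in mRNA from 12 mouse liver samples. The members were all rows of the deposited count table whose symbol began with Ccl, Cxcl, Cx3cl or Xcl followed by a number, which gave 34 of 25540 rows. They were grouped by known roles: 16 that attract neutrophils, monocytes or eosinophils (myeloid-attracting), 4 that are linked to interferon, 7 homeostatic, 5 that act on lymphocytes and dendritic cells, and 2 with a membrane anchor. Livers came from BALB/c mice injected with preparations called iExos, taken from the title as exosomes, the small vesicles that cells release, with 3 samples in each of 4 groups. The loads were siCntrl or siSTAT3 (by the usual prefix, small interfering RNA), and mASO Scrbl or mASO STAT3 (antisense oligonucleotide). Comparisons were made within an arm, siSTAT3 against siCntrl and mASO STAT3 against mASO Scrbl. The title places the work in liver fibrosis, but the labels state neither an injury nor the age of the animals, the dose or the source of the vesicles, and every group received vesicles. Uninjected livers were not analysed here. Whether the replicates are different animals is not stated, so each p-value reflects only how far these samples spread, and part of that may be technical.

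Chemokines are small secreted proteins that draw leukocytes along a gradient by binding receptors with 7 membrane passes. CXC ligands with an ELR motif call neutrophils through CXCR2, CC ligands such as CCL2 call monocytes through CCR2, and CXCL9, CXCL10 and CXCL11 are made in response to interferon gamma and act on T and NK cells through CXCR3. Homeostatic members such as CXCL12 position resting cells in a tissue without inflammation. In the liver, injury brings monocytes and neutrophils from the blood, and Kupffer cells, stellate cells, bile duct cells and hepatocytes all make chemokines.

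Library totals ran from 39844158 to 67791159 counts, and the 34 members together held 0.0338% to 0.0613% of them. Levels are given as CPM, counts scaled to library size after edgeR's TMM correction for composition, and a gene was called when the Benjamini-Hochberg adjusted p of edgeR's quasi-likelihood test was under 0.05. Of the members, 25 passed edgeR's low-count filter, which kept 15720 genes, and 9 did not. Stat3, the named target, stood at 112 ± 7.5 CPM in siCntrl, 110.0 ± 16.2 in siSTAT3, 99.2 ± 8.4 in mASO Scrbl and 103 ± 13.7 in mASO STAT3 (SD, n = 3) and was not called in either arm, so every direction below rests on the labels. In bulk liver RNA, fewer cells of a type and less RNA per cell cannot be told apart.

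Livers labelled siSTAT3 held less mRNA of 6 of the 12 tested myeloid-attracting ligands than siCntrl livers and more of some interferon-linked and homeostatic ligands. In this arm 6 tested members were higher and 10 lower by edgeR, which is 24.0% and 40% of those tested against a background of 22.4% and 23.4% of all tested genes. In the mASO arm 5 were higher and 8 lower, 20.0% and 32.0% against 21.3% and 22.5%. The higher shares lay near the background and are no result about chemokines as a class, and the lower shares lay above it. Called in both arms were 4 higher members (Ccl9, Ccl27a, Cxcl9 and Cxcl12) and 8 lower ones (Ccl2, Ccl6, Ccl7, Cxcl1, Cxcl2, Cxcl13, Cxcl14 and Cx3cl1), where 17.4% and 16.9% of all tested genes did so. The median log2 fold change of the 25 tested members was −1.15 in the siRNA arm and −0.27 in the mASO arm, beside −0.04 and −0.05 for all tested genes. Groups did not overlap for 6 higher (24.0%) and 8 lower (32.0%) members in the siRNA arm, against 25.5% and 27.5% of all tested genes, so these shares were near the background. The same count was 6 higher (24.0%) and 10 lower (40%) in the mASO arm, against 27.2% and 29.6%. Scaled by library totals in place of TMM, the all-gene median went to −0.53 and −0.63 on the log2 scale, and 18.6% and 16.1% of all calls were higher in place of 48.9% and 48.6%. With that scaling Ccl3, Ccl4, Ccl8 and Ccl11 were also called lower in the siRNA arm, and Ccl3, Ccl11, Ccl25 and Cxcl16 in the mASO arm. Changes below are relative to the composition-scaled level.

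**Figure D1:**
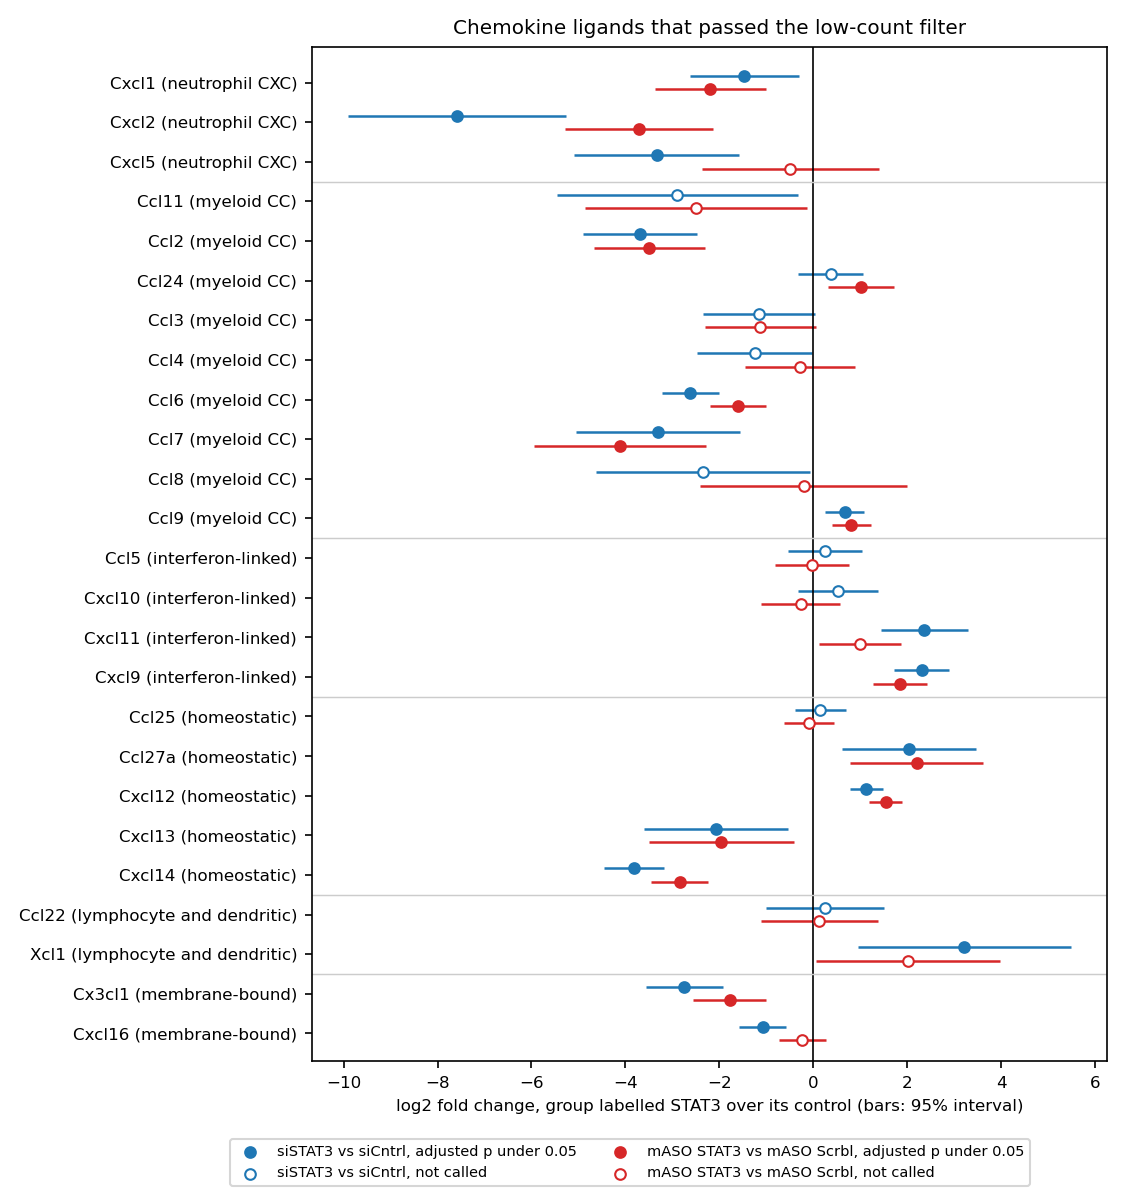
Log2 fold change of the group labelled STAT3 over its own control for the 25 members that passed the low-count filter, by role, in the siRNA arm (blue) and the mASO arm (red). Bars are 95% intervals of the edgeR fit and filled points are called, with most myeloid-attracting members left of 0 and Cxcl9, Cxcl12 and Ccl9 right of 0 in both arms.

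By role, 12 of the 16 myeloid-attracting members were tested. Of these, 6 were lower and 1 higher in the siRNA arm, with a median log2 fold change of −2.48, and 5 were lower and 2 higher in the mASO arm, with a median of −1.36. All 4 interferon-linked members were tested, of which 2 were higher in the siRNA arm (median 1.42) and 1 in the mASO arm (median 0.48), and 0 were lower by edgeR, DESeq2 or voom (0 at an unadjusted p under 0.05 by edgeR). The 5 tested homeostatic members split in each arm into 2 higher and 2 lower, with medians of 0.15 and −0.09. Among all tested genes the siRNA arm had 22.4% higher and 23.4% lower, and the mASO arm 21.3% and 22.5%. Beside these shares, the lower myeloid-attracting members stood above the background in both arms. The higher ones stood under it in the siRNA arm and near it in the mASO arm. The 1 higher interferon-linked member of the mASO arm was near it. Roles with 4 or 5 tested members are too small to set apart from the background. The role was assigned from textbook function, and the counts and medians by role are descriptions with no test of their own.

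Among the neutrophil ligands, Cxcl1, Cxcl2 and Cxcl5 passed the filter. Cxcl1 encodes the mouse counterpart of the human GRO chemokines and had the highest level of the group per exon length. It stood at 32.2, 89.1 and 23.3 CPM in siCntrl and 8.32, 27.2 and 16.9 CPM in siSTAT3. It stood at 52.6, 26.6 and 46.8 CPM in mASO Scrbl and 9.92, 7.64 and 10.1 CPM in mASO STAT3. The siRNA groups overlapped, since siSTAT3 2 lay above siCntrl 3, and the mASO groups did not. The log2 fold change was −2.19 ± 0.54 (SE) in the mASO arm (edgeR adjusted p = 0.00706). In the siRNA arm it was −1.47 ± 0.52 (edgeR adjusted p = 0.0403), and the call ended without siCntrl 2 (−0.67, edgeR adjusted p = 0.221), without siSTAT3 1 or 3 (0.118 and 0.105) and under 5 other alternatives (0.0528 to 0.1).

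Cxcl2, a close relative of Cxcl1 that macrophages release early in inflammation, had the largest fitted change of the tested members in the siRNA arm. Its level was 0.786, 1.21 and 4.07 CPM in siCntrl, while the siSTAT3 libraries held 0, 0 and 1 counts against 426 counts over siCntrl. The ratio was 239 with a 95% counting interval of 42.6 to 9450, and 119 (21.0 to 4720) without siCntrl 3, 142 (25.4 to 5620) without siSTAT3 1 and 161 (28.8 to 6390) without siSTAT3 2. Without siSTAT3 3 no count remained, and with a floor of 3 counts for the group Cxcl2 was at least 58.0-fold lower. With antisense loads it fell from 0.826, 1.99 and 3.01 CPM to 0.0984, 0.114 and 0.221 CPM, a log2 fold change of −3.72 ± 0.73 (edgeR adjusted p = 0.00111). Both control groups lay wholly above their STAT3 groups.

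Cxcl5, which epithelial cells and fibroblasts make, was scarce and was called in the siRNA arm. It stood at 0.227, 0.230 and 0.618 CPM in siCntrl and 0.0205, 0.0514 and 0.0307 CPM in siSTAT3, a log2 fold change of −3.33 ± 0.82 (edgeR adjusted p = 0.00455, and −2.69 without siCntrl 3). The mASO groups held 12 and 5 counts and overlapped (−0.49 ± 0.88, edgeR adjusted p = 0.684). The test of the difference between the arms did not pass for Cxcl5 (2.85 ± 1.28, edgeR adjusted p = 0.674).

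The promoters of Cxcl1 and Cxcl2 are shown because these neighbouring genes were called lower in both arms. Their levels did not follow each other across the control libraries. The windows of Cxcl9, Cxcl10 and Cxcl14 are shown for comparison with the results that follow. RefSeq promoter entries on GRCm38.p6 were matched by symbol for 23 of the 34 members, and each sequence below is the 250 bases before the annotated start, 5′ to 3′ on the gene's strand. Cxcl1 lies on the plus strand (chr5:90890995-90891244), as does Cxcl2 (chr5:90903649-90903898). Cxcl9 (chr5:92328080-92328329), Cxcl10 (chr5:92348890-92349139) and Cxcl14 (chr13:56296552-56296801) lie on the minus strand. Capitals mark matches on either strand to 4 searched patterns: GGG and CC with any 5 bases between them (NF-kB), GAAA and GAAA with any 2 bases between them (interferon-stimulated response element, ISRE), TTC and GAA with any 3 bases between them (the STAT-bound GAS element) and TATAAA. Overlapping matches run together.
Cxcl1: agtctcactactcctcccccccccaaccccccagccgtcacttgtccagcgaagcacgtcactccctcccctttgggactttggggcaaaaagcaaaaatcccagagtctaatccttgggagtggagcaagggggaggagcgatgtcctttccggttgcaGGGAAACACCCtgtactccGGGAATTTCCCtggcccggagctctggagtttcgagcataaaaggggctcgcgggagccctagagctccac
Cxcl2: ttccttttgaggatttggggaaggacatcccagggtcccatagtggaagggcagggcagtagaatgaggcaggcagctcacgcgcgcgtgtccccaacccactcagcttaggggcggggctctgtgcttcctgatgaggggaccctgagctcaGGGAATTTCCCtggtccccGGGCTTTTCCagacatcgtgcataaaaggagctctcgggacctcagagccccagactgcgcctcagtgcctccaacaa
Cxcl9: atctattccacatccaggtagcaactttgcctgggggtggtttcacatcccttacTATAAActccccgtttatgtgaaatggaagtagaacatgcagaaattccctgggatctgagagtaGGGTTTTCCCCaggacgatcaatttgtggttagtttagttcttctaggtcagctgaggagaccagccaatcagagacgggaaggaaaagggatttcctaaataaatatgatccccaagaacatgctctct
Cxcl10: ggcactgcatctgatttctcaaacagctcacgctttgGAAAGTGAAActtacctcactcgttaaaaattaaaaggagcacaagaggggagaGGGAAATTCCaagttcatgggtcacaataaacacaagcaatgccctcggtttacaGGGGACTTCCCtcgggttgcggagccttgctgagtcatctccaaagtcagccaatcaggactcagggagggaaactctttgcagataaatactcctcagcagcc
Cxcl14: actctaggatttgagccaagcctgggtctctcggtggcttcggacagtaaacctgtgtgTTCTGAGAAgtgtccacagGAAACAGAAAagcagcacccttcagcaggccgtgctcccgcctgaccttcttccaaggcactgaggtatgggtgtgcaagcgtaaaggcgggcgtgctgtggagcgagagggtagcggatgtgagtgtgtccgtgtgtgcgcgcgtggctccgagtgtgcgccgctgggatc
The NF-kB letters were found in 13 of the 23 members with a promoter entry and in 45.8% of 32851 RefSeq promoter windows of the same length, so the pattern is common. Ccl25 and Ccl27a have several windows, and a member was counted once if any of its windows matched. A stricter run, GGGAATTTCC, chosen after it was seen in Cxcl1 at −71 to −62 and in Cxcl2 at −97 to −88, was present in 3 members (Cxcl1, Cxcl2 and Cxcl3) and in 0.0852% of all windows. ISRE letters were found in Cxcl10 and Cxcl14 and in 2.98% of all windows, and GAS letters in Ccl17 and Cxcl14 and in 7.02%. TATAAA was in 9 members and in 12.4% of all windows. A match describes the letters only. Among 13 tested genes of an NF-kB response list, 6 were lower in the siRNA arm and 4 in the mASO arm, beside 23.4% and 22.5% of all tested genes. The other 7 and 9 were not called, and 0 were higher by edgeR (0 at an unadjusted p under 0.05, where 7 and 6 were lower). Icam1, an adhesion receptor gene, fell by 1.01 and 0.69 on the log2 scale. The relation of this list to the promoter letters was not tested.

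Ccl2 and Ccl7, both monocyte ligands of CCR2, fell in both arms. Ccl2, the main monocyte chemoattractant, stood at 2.96, 6.66 and 4.87 CPM in siCntrl and 0.370, 0.206 and 0.553 CPM in siSTAT3. It stood at 3.33, 2.42 and 6.97 CPM in mASO Scrbl and 0.148, 0.342 and 0.624 CPM in mASO STAT3. The groups did not overlap in either arm, with log2 fold changes of −3.69 ± 0.56 and −3.49 ± 0.55 (edgeR adjusted p = 0.000153 and 0.000208), the latter −4.07 without mASO STAT3 3. Ccl7, whose gene lies next to Ccl2 and whose product also binds CCR2, fell as well. It fell from 0.933, 1.48 and 1.35 CPM to 0.0205, 0.103 and 0.277 CPM in the siRNA arm, a log2 fold change of −3.31 ± 0.82 (edgeR adjusted p = 0.0047, and −4.37 without siSTAT3 3). With antisense loads it fell from 1.08, 0.932 and 1.66 CPM to 0, 0.0190 and 0.181 CPM, a log2 fold change of −4.11 ± 0.85 (edgeR adjusted p = 0.00155). Without mASO STAT3 3, 1 count was left against 300, a ratio of 114 (20.3 to 4510).

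Other members of the same gene cluster were scarce. Ccl11, the eosinophil ligand eotaxin, had 67 counts over all 12 libraries and log2 fold changes of −2.90 ± 1.2 and −2.50 ± 1.10 that did not pass (edgeR adjusted p = 0.0625 and 0.0817). In the siRNA arm it passed without siCntrl 1 (−3.34, edgeR adjusted p = 0.0376) and without siSTAT3 3 (0.0246), where no count was left. Ccl8 had 221 counts and values of −2.34 ± 1.06 and −0.20 ± 1.02 (edgeR adjusted p = 0.0875 and 0.891), passing in the siRNA arm without siCntrl 1 (−2.85, edgeR adjusted p = 0.0333) and without siSTAT3 3 (−4.17, 0.0212).

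Ccl6 and Ccl9, a pair of related neighbouring genes whose products bind CCR1, moved in opposite directions. Ccl6 stood at 37.0, 57.1 and 77.3 CPM in siCntrl and 8.55, 9.21 and 10.3 CPM in siSTAT3, and at 51.9, 28.9 and 29.1 CPM in mASO Scrbl and 14.3, 11.4 and 10.4 CPM in mASO STAT3. No STAT3-labelled library reached the lowest control. Its log2 fold changes were −2.61 ± 0.28 and −1.60 ± 0.27 (edgeR adjusted p = 1.11e-05 and 0.000412). Ccl9 rose from 45.3, 34.6 and 39.9 CPM to 56.0, 72.5 and 62.6 CPM, and from 45.4, 24.6 and 35.3 CPM to 64.6, 53.4 and 67.0 CPM. These groups did not overlap either, with log2 fold changes of 0.67 ± 0.19 and 0.81 ± 0.19 (edgeR adjusted p = 0.0119 and 0.00406). Scaled by library totals, Ccl9 kept its sign but was not called in either arm (0.18 and 0.23, edgeR adjusted p = 0.386 and 0.269), and the siRNA call ended without siCntrl 2 (edgeR adjusted p = 0.0526).

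A ratio of counts within a library does not depend on its scaling. Ccl6 over Ccl9 was 1.47 ± 0.581 in siCntrl and 0.148 ± 0.0191 in siSTAT3, and 1.05 ± 0.193 in mASO Scrbl and 0.197 ± 0.0364 in mASO STAT3 (SD, n = 3). The highest ratio in a STAT3-labelled library was 0.222 and the lowest in a control 0.818.

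**Figure D2:**
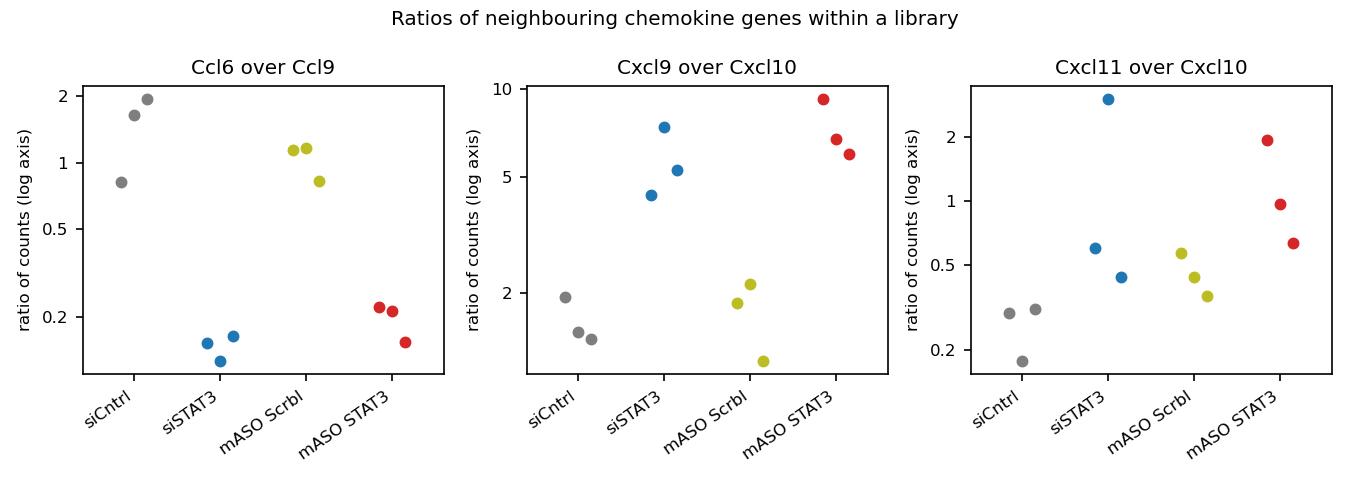
Ratio of the counts of neighbouring chemokine genes in each library (points, log axis), with the 4 groups on the horizontal axis. Ccl6 over Ccl9 lies at 0.127 to 0.222 in the STAT3-labelled libraries and 0.818 to 1.94 in the controls, Cxcl9 over Cxcl10 at 4.31 to 9.21 against 1.17 to 2.15, and Cxcl11 over Cxcl10 at 0.440 to 3.02 against 0.178 to 0.569.

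Ccl24, or eotaxin 2, which alternatively activated macrophages make, was the other higher member of this role. It stood at 5.0, 2.86 and 2.51 CPM in mASO Scrbl and 9.84, 4.81 and 6.48 CPM in mASO STAT3, groups that overlapped. The log2 fold change was 1.02 ± 0.33 (edgeR adjusted p = 0.0205). The call ended without mASO STAT3 1 (0.71, edgeR adjusted p = 0.119), without mASO Scrbl 2 or 3 (0.0765 and 0.0799) and with library totals (0.255). In the siRNA arm Ccl24 had a log2 fold change of 0.37 ± 0.32 (edgeR adjusted p = 0.372). Ccl3 and Ccl4, which call monocytes and T cells, did not pass in either arm. Ccl3 had values of −1.15 ± 0.56 and −1.12 ± 0.55, and Ccl4 of −1.24 ± 0.57 and −0.28 ± 0.54 (edgeR adjusted p from 0.0897 to 0.703). Ccl4 passed in the siRNA arm without siCntrl 1 (−1.62, edgeR adjusted p = 0.0303) and without siSTAT3 2 (−2.0, 0.0183).

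**Figure D3:**
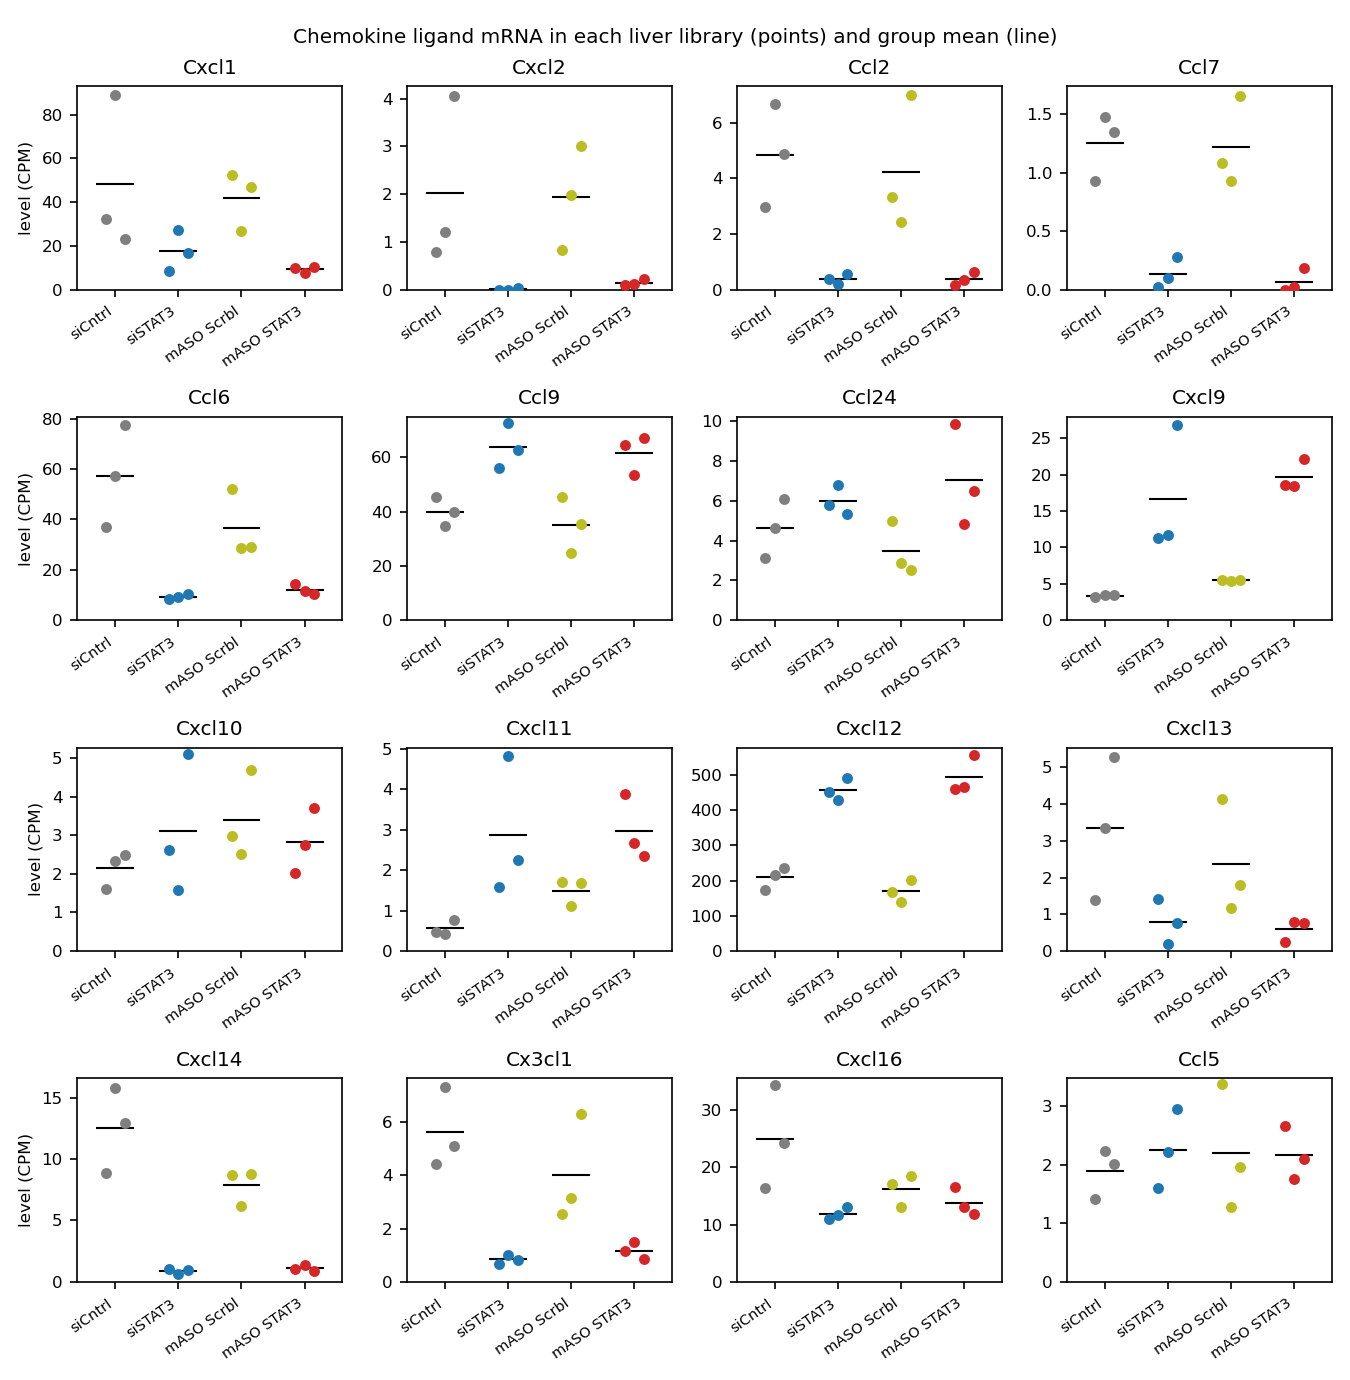
Level of 16 members in each library (points, CPM, linear axes that start at 0) and the group mean (line). Cxcl2, Ccl2, Ccl7, Ccl6, Cxcl14 and Cx3cl1 are lower, and Ccl9, Cxcl9 and Cxcl12 higher, in every STAT3-labelled library than in every control library of the same arm, while Cxcl10 and Ccl5 overlap.

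The interferon-linked ligands did not move as a group. Cxcl9 rose in both arms, from 3.13, 3.43 and 3.46 CPM to 11.3, 11.8 and 26.8 CPM and from 5.51, 5.43 and 5.50 CPM to 18.6, 18.4 and 22.1 CPM. No control library reached the lowest STAT3-labelled library, and siSTAT3 3 stood above the rest of its group. The log2 fold changes were 2.31 ± 0.28 and 1.85 ± 0.27 (edgeR adjusted p = 1.86e-05 and 9.82e-05). Cxcl10, its neighbour and a ligand of the same receptor, stood at 1.61, 2.34 and 2.50 CPM in siCntrl and 2.63, 1.59 and 5.10 CPM in siSTAT3, with overlap. In the mASO arm it stood at 2.99, 2.52 and 4.68 CPM in mASO Scrbl and 2.02, 2.74 and 3.70 CPM in mASO STAT3. Its log2 fold changes of 0.53 (95% interval −0.33 to 1.38) and −0.27 (−1.11 to 0.58) did not pass (edgeR adjusted p = 0.301 and 0.614).

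Cxcl9 over Cxcl10 in counts was 1.60 ± 0.301 in siCntrl and 5.65 ± 1.57 in siSTAT3, and 1.72 ± 0.501 in mASO Scrbl and 7.30 ± 1.69 in mASO STAT3 (SD, n = 3). Cxcl11, the third neighbour, rose in the siRNA arm from 0.480, 0.416 and 0.776 CPM to 1.58, 4.81 and 2.24 CPM (2.36 ± 0.43, edgeR adjusted p = 0.000582, and 1.77 without siSTAT3 2). It stood at 1.70, 1.10 and 1.67 CPM in mASO Scrbl and 3.89, 2.66 and 2.35 CPM in mASO STAT3. These groups did not overlap, yet the change of 0.99 ± 0.41 did not pass edgeR's test (adjusted p = 0.0628). DESeq2 and voom called it (adjusted p = 0.0324 and 0.0463), as did edgeR over the mASO libraries alone (0.0237) and without siSTAT3 1 or 2 (0.0453 and 0.0269). GENCODE M21 places 1582 exon bases of Cxcl11 under the opposite-strand gene Gm2673, and RefSeq lists Cxcl11 as a transcribed pseudogene in the reference strain. The sources used here do not say whether counting used strand, so reads of the pair may not be told apart. Ccl5, a ligand of T cells and monocytes, was at 1.89 ± 0.427 and 2.25 ± 0.674 CPM in siCntrl and siSTAT3 and at 2.21 ± 1.07 and 2.17 ± 0.459 CPM in mASO Scrbl and mASO STAT3, and did not pass (0.25 and −0.03, edgeR adjusted p = 0.607 and 0.959).

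Beside these ligands, 8 of 20 interferon-stimulated genes were higher and 0 lower in the siRNA arm by edgeR (0 lower at an unadjusted p under 0.05), beside 22.4% and 23.4% of all tested genes, among them Mx2, an antiviral GTPase gene (1.71 ± 0.21), and Ifit3 (1.61 ± 0.23). In the mASO arm 4 were higher, including Mx2 (0.95 ± 0.21), and 4 lower, including Oasl1 (−1.23 ± 0.18) and Irf7, a regulator of type I interferon (−1.31 ± 0.19). These 4 and 4 of 20 are near the 21.3% higher and 22.5% lower of all tested genes in that arm. Their summed level ran from 392 to 536 CPM (siCntrl) against 520.1 to 902 (siSTAT3) and from 564 to 614 (mASO Scrbl) against 497 to 695 (mASO STAT3). The interferon genes present in the table had too few counts to test. Of 9 tested T and NK cell markers 1 was higher and 2 lower in the siRNA arm and 4 were higher in the mASO arm. The siRNA counts are near or under the 22.4% higher and 23.4% lower of all tested genes. In the mASO arm 21.3% of all tested genes were higher. Their summed level ran from 3.41 to 6.08 CPM (siCntrl) against 3.34 to 6.67 (siSTAT3) and from 2.53 to 3.92 (mASO Scrbl) against 6.84 to 7.42 (mASO STAT3). The part of these genes and cells in the Cxcl9 change was not tested.

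Homeostatic ligands split. Cxcl12, which holds leukocytes and progenitors through CXCR4, had the most counts of any member, from 11455 to 27687 in a library. It rose from 174, 217 and 236 CPM to 453, 430 and 492 CPM in the siRNA arm and from 168, 139 and 202 CPM to 459, 466 and 557 CPM in the mASO arm. The lowest STAT3-labelled library lay above the highest control, with log2 fold changes of 1.13 ± 0.16 and 1.54 ± 0.17 (edgeR adjusted p = 9.25e-05 and 7.37e-06). Cxcl14, an epithelial and stromal ligand of macrophages and dendritic cells, went the other way. It stood at 8.88, 15.8 and 12.9 CPM in siCntrl and 1.07, 0.643 and 0.952 CPM in siSTAT3, and at 8.67, 6.19 and 8.74 CPM in mASO Scrbl and 1.03, 1.37 and 0.886 CPM in mASO STAT3. The gap between groups was wider than their spread in both arms, with log2 fold changes of −3.81 ± 0.30 and −2.84 ± 0.28 (edgeR adjusted p = 4.75e-07 and 3.84e-06). In counts, Cxcl14 over Cxcl12 was 0.0596 ± 0.0118 in siCntrl, 0.00193 ± 0.000432 in siSTAT3, 0.0465 ± 0.00439 in mASO Scrbl and 0.00226 ± 0.000675 in mASO STAT3 (SD, n = 3).

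Cxcl13, the B cell ligand of lymphoid follicles, varied widely between libraries. It stood at 1.40, 3.35 and 5.29 CPM in siCntrl and 1.42, 0.180 and 0.768 CPM in siSTAT3, and at 4.14, 1.16 and 1.81 CPM in mASO Scrbl and 0.246, 0.798 and 0.765 CPM in mASO STAT3. The siRNA groups overlapped and the mASO groups did not. Its log2 fold changes of −2.06 ± 0.71 and −1.96 ± 0.71 passed edgeR's test narrowly (adjusted p = 0.0306 and 0.0405). The siRNA call ended with no low-count filter and without siCntrl 2 or 3 or siSTAT3 2 or 3 (edgeR adjusted p 0.0603 to 0.115). The mASO call ended with voom, no filter, the replicate block, and without siCntrl 2, siSTAT3 3, any mASO STAT3 library, mASO Scrbl 1 or mASO Scrbl 3 (adjusted p 0.0523 to 0.182). The fold change was −2.84 without siSTAT3 1 and −1.29 without mASO Scrbl 1.

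Ccl27a, a skin-homing T cell ligand of epithelia, was scarce, with 199 counts in all. It rose from 0.138 ± 0.103 to 0.575 ± 0.304 CPM and from 0.114 ± 0.0444 to 0.536 ± 0.0494 CPM (SD, n = 3), log2 fold changes of 2.04 ± 0.66 and 2.21 ± 0.66 (edgeR adjusted p = 0.0215 and 0.0148). The siRNA call ended without siCntrl 1 or siSTAT3 2 (1.55 and 1.60, edgeR adjusted p = 0.0614 and 0.0919), over the siRNA libraries alone (0.0554) and with library totals (0.0617), and the mASO call without mASO Scrbl 2 (0.0614). Near-identical copies of Ccl27a exist, so its level is uncertain. Ccl25, a gut ligand of T cells, was at 2.97 ± 0.284, 3.29 ± 0.823, 3.29 ± 0.827 and 3.10 ± 0.201 CPM in siCntrl, siSTAT3, mASO Scrbl and mASO STAT3 and did not pass, with 95% intervals of −0.39 to 0.69 and −0.62 to 0.45. Ccl19, the Ccl21 copies and Ccl27b were not analysed here.

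Of the membrane-anchored ligands, Cx3cl1 (fractalkine), which binds CX3CR1 on monocytes, fell in both arms. It stood at 4.41, 7.31 and 5.11 CPM in siCntrl and 0.678, 1.0 and 0.829 CPM in siSTAT3, and at 2.55, 3.15 and 6.30 CPM in mASO Scrbl and 1.16, 1.48 and 0.845 CPM in mASO STAT3. The groups did not overlap, and the log2 fold changes were −2.75 ± 0.38 and −1.78 ± 0.36 (edgeR adjusted p = 6.39e-05 and 0.00136). Cxcl16, a ligand of CXCR6 on T and NKT cells, stood at 16.4, 34.4 and 24.3 CPM in siCntrl and 10.9, 11.7 and 13.1 CPM in siSTAT3. These did not overlap (−1.07 ± 0.23, edgeR adjusted p = 0.00212). In the mASO arm it stood at 17, 13.1 and 18.5 CPM in mASO Scrbl and 16.5, 13.1 and 11.9 CPM in mASO STAT3, with overlap and no call (−0.23, 95% interval −0.73 to 0.27, edgeR adjusted p = 0.446). With library totals it was called there too (−0.81, edgeR adjusted p = 0.0142). GENCODE M21 places 552 of its exon bases under the opposite-strand gene Zmynd15. Smaller opposite-strand overlaps are those of Ccl25 with Elavl1 (204 bases), Cxcl10 with Art3 (133), Xcl1 with Gm20743 (98) and Ccl27a with Il11ra1 (8). With strand use not stated, the levels of these members carry the same limit.

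Xcl1, which NK and T cells make and which acts on cross-presenting dendritic cells through XCR1, had 103 counts in all. It stood at 0, 0.0862 and 0 CPM in siCntrl and 0.103, 0.180 and 0.584 CPM in siSTAT3, and at 0.0850, 0.0605 and 0.0867 CPM in mASO Scrbl and 0.123, 0.380 and 0.443 CPM in mASO STAT3. The groups did not overlap in either arm. Only the siRNA change passed (3.22 ± 1.06, edgeR adjusted p = 0.0228, against 2.01 ± 0.91, 0.0891), and it ended without siCntrl 1 or 3 (0.0698 and 0.0735) or siSTAT3 3 (2.23, 0.133). Without siCntrl 2 no control count was left, and with 3 counts as the floor it was at least 12.4-fold higher. The mASO change passed without siCntrl 2 (edgeR adjusted p = 0.0495). Ccl22, a dendritic cell ligand of regulatory T cells, was at 0.472 ± 0.258, 0.568 ± 0.363, 0.428 ± 0.194 and 0.468 ± 0.157 CPM in siCntrl, siSTAT3, mASO Scrbl and mASO STAT3 and did not pass.

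The makeup of chemokine mRNA differed between the groups. With counts divided by the exon length of each gene, myeloid-attracting members made up 62.6% ± 2.52 of all members in siCntrl and 36.4% ± 5.71 in siSTAT3, and 61.6% ± 3.78 in mASO Scrbl and 33.4% ± 3.38 in mASO STAT3 (SD, n = 3). Homeostatic members went from 26.9% ± 3.06 to 50.7% ± 5.20 and from 26.2% ± 2.60 to 52.4% ± 3.61. Interferon-linked members went from 3.13% ± 0.3 to 8.57% ± 2.87 and from 5.65% ± 0.0766 to 9.12% ± 0.0877. None of the 3 shares overlapped between the groups of an arm. In siCntrl, Ccl6 (23.5% ± 5.96), Cxcl12 (19.3% ± 2.88) and Cxcl1 (18.3% ± 10.1) led and did not differ from each other beyond their spread. Ccl9 (10.4% ± 4.19) came next and overlapped with Cxcl1, standing above it in siCntrl 3. In siSTAT3, Cxcl12 (49.1% ± 4.65) led Ccl9 (18.3% ± 1.93), then Cxcl1 (7.97% ± 4.07), Cxcl9 (4.71% ± 2.10) and Ccl6 (4.54% ± 0.145), of which the last 3 overlapped in spread. The mASO arm gave the same leaders, with Cxcl1 (20.6% ± 2.36), Cxcl12 (19.8% ± 3.04) and Ccl6 (19.1% ± 4.41) in mASO Scrbl, and Cxcl12 (50.9% ± 3.42) and Ccl9 (17% ± 0.823) in mASO STAT3. A share rises when others fall, so these values describe balance, not level. In summed CPM, myeloid-attracting members stood at 160.9 ± 37.6 in siCntrl and 97.9 ± 18.6 in siSTAT3, without overlap, and at 127 ± 36.2 in mASO Scrbl and 91.9 ± 11.3 in mASO STAT3, with overlap. The CC ligands among them summed to 82.7 ± 24.1 CPM in mASO Scrbl and 82.5 ± 9.96 in mASO STAT3.

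**Figure D4:**
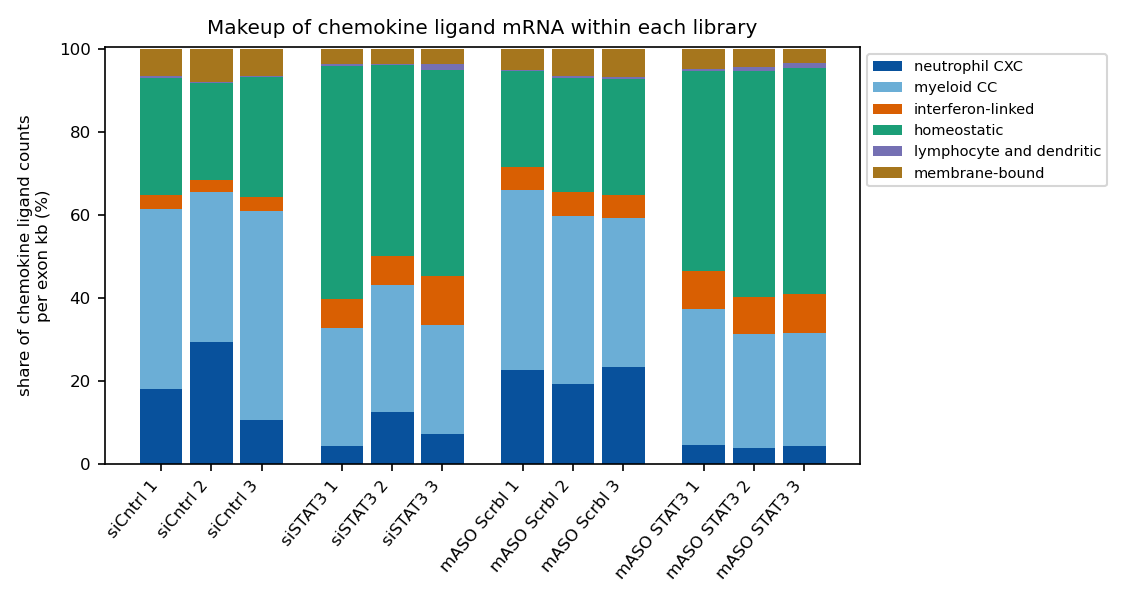
Share of each role in the chemokine ligand counts per exon kilobase, 1 bar per library, by group and replicate. Homeostatic members (green, mostly Cxcl12) take 23.2% to 29.0% in the 6 control libraries and 46.1% to 56.4% in the 6 STAT3-labelled libraries, and the myeloid-attracting members (both blues) 59.2% to 66.0% against 31.2% to 43.0%.

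The responses of the arms were compared by an interaction term. By edgeR, DESeq2 or voom 0 of 25 members differed (6 had an unadjusted edgeR p under 0.05), beside 0.00636% of all tested genes. The 6 were Ccl6, Cxcl2, Cxcl5, Cxcl11, Cxcl14 and Cxcl16, with differences of mASO minus siRNA log2 fold changes of 1.01 ± 0.38, 3.87 ± 1.47, 2.85 ± 1.28, −1.37 ± 0.58, 0.97 ± 0.39 and 0.84 ± 0.33, and edgeR adjusted p of 0.643 to 0.674. Each was nearer to 0 in the mASO arm. Between the controls, 0 members were called by edgeR, DESeq2 or voom in mASO Scrbl against siCntrl (6 at an unadjusted p under 0.05 by edgeR), beside 0.0127% of all tested genes. Of these 6, Cxcl11 (1.42 ± 0.42) and Cxcl9 (0.71 ± 0.27) stood higher in mASO Scrbl, and Cxcl5 (−2.82 ± 0.70), Cxcl14 (−0.67 ± 0.25), Ccl6 (−0.64 ± 0.26) and Cxcl16 (−0.62 ± 0.23) lower, with edgeR adjusted p of 0.411 to 0.604. Between mASO STAT3 and siSTAT3, 0 members were called by edgeR, DESeq2 or voom, beside 0.0% of all tested genes, and Cxcl2 alone had an unadjusted p under 0.05 (3.81 ± 1.31, edgeR adjusted p = 0.663). The first 2 of these comparisons share the siCntrl and mASO Scrbl libraries.

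Receptors of these ligands moved in both directions, and those given values here had the smallest p of their lists or are members of a dendritic marker list. Cxcr2, the receptor of the neutrophil ligands, was at 3.11 ± 0.753 CPM in siCntrl and 0.257 ± 0.185 in siSTAT3, and at 3.06 ± 0.550 in mASO Scrbl and 0.387 ± 0.114 in mASO STAT3 (SD, n = 3), log2 fold changes of −3.57 ± 0.50 and −2.99 ± 0.47. Ccr1, a receptor of Ccl6 and Ccl9, fell by 3.55 and 2.09 on the log2 scale. Ccr2 fell by 2.17 in the siRNA arm and had a value of −0.82 ± 0.40 in the mASO arm that did not pass (edgeR adjusted p = 0.112), and Cx3cr1 values were −1.86 ± 0.41 and −0.88 ± 0.40 (edgeR adjusted p = 0.00257 and 0.0904). Xcr1 was scarce, with means of 0.280 CPM in siCntrl, 0.753 in siSTAT3, 0.274 in mASO Scrbl and 0.952 in mASO STAT3. It rose in both arms (1.42 ± 0.49 and 1.79 ± 0.49). Of the 6 dendritic markers that include it, 1 was higher and 1 lower in the siRNA arm, beside 22.4% and 23.4% of all tested genes. In the mASO arm 3 were higher and 1 lower, beside 21.3% and 22.5%. Siglech, of the same list, fell in both arms (−2.627 ± 0.657 and −2.065 ± 0.595). Ackr3, an atypical receptor that takes up CXCL12, fell in both arms (−1.80 ± 0.46 and −1.66 ± 0.45). Ackr2, an atypical receptor that scavenges inflammatory CC ligands, rose in the mASO arm (1.15 ± 0.27, edgeR adjusted p = 0.00318) and did not pass in the siRNA arm (0.65 ± 0.27, edgeR adjusted p = 0.0582). By edgeR, Cxcr4, the receptor of CXCL12, was also lower in the siRNA arm, and Cxcr6, the receptor of CXCL16, higher in the mASO arm, both named after their values were seen.

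Markers of liver cell types moved beside the ligands. As background for the counts that follow, edgeR called 22.4% of all tested genes higher and 23.4% lower with siSTAT3. With mASO STAT3 these shares were 21.3% and 22.5%. The Kupffer cell counts, and the counts of higher stellate cell markers, are near such shares for lists this short and are no result about those markers. Of 8 monocyte markers 6 were lower in the siRNA arm and 4 in the mASO arm, and their summed level ran from 161 to 429 CPM (siCntrl) against 61.5 to 96.8 (siSTAT3) and from 179 to 289 (mASO Scrbl) against 50.3 to 81.0 (mASO STAT3). Of 8 neutrophil markers 5 and 6 were lower, with sums of 53.1 to 106 CPM (siCntrl) against 16.7 to 60.6 (siSTAT3) and 36.0 to 90.8 (mASO Scrbl) against 21.04 to 22.5 (mASO STAT3). Of 7 tested Kupffer cell markers 2 were lower in each arm and 1 and 2 higher, and the sums overlapped, from 256 to 562 CPM (siCntrl) against 276 to 420 (siSTAT3) and from 278 to 514 (mASO Scrbl) against 329 to 376 (mASO STAT3). Of 8 stellate cell markers 6 and 5 were lower and 1 and 2 higher, with sums of 890 to 1144 CPM (siCntrl) against 209 to 307 (siSTAT3) and 668 to 1215 (mASO Scrbl) against 307 to 369 (mASO STAT3). Of 5 tested bile duct markers 4 and 3 were lower, with sums of 540 to 1376 CPM (siCntrl) against 81.7 to 132 (siSTAT3) and 581 to 1322 (mASO Scrbl) against 67.8 to 93.4 (mASO STAT3). These sums were mostly Spp1, with means of 969 CPM (siCntrl), 91.05 (siSTAT3), 960 (mASO Scrbl) and 71.3 (mASO STAT3). Log2 fold changes were −3.41 and −3.75 for Spp1, −1.65 and −1.82 for Sox9 and −1.55 and −0.90 for Epcam. Those of Krt7 were −1.69 and −0.54, the latter not called (edgeR adjusted p = 0.285). Of 8 hepatocyte markers 6 and 8 were higher. Their sums ran from 47890 to 84770 CPM (siCntrl) against 130700 to 143300 (siSTAT3). In the mASO arm they ran from 54640 to 84310 CPM (mASO Scrbl) against 115900 to 156700 (mASO STAT3). These sums are composition-scaled levels and not shares of a library. Among the markers, Cyp2e1, a hepatocyte enzyme gene that activates solvents, rose by 6.77 ± 0.34 and 7.19 ± 0.35 on the log2 scale, and Acta2, smooth muscle actin of activated stellate cells, fell by 6.71 and 6.45. No marker of these lists that the table holds was at 0 counts in all libraries. The part of these cell types in the changes of the ligands was not tested.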

How the data were processed

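Liver mRNA of 12 samples was sequenced after a stranded Illumina kit, as the labels' protocols state. The count table deposited by the authors gives raw reads per gene symbol without normalization and is the base of every value. A second deposited table, of normalized signal, was not used for any result. Per the submitters' processing notes, TopHat and Cufflinks were used, with no version or step given. The build, annotation, counting tool and strand setting were not given in the sources used here. Close paralogs and overlapping genes are therefore uncertain, and coordinates are those of RefSeq windows only.

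A single edgeR model (4.0.16, under R 4.3.3) held the 12 libraries by group, with TMM scaling, a low-count filter by group (minimum count 10, minimum total 15) that kept 15720 genes and removed 9820, and the robust quasi-likelihood test with Benjamini-Hochberg adjustment over all kept genes, with residual degrees of freedom of 8 and a common biological variation (BCV) of 0.247. The SE is the log2 fold change divided by the square root of F. Counting intervals are 95%, and these and the floor of 3 counts over a group cover counting error only. Exon lengths came from GENCODE M21. Procedures were tested on simulated data with few changed genes, which does not test the scaling under changes as broad as those seen here.

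The members, role classes and gene lists were chosen with earlier results of these data known. Any member could be named. Values per library are given for members that reached a mean of 1 CPM in a group and passed in an arm, for Cxcl2, and for a few scarcer or uncalled members chosen after their values were seen. From each other list up to 4 genes with the smallest p have values. Counts over the chemokine receptor list are not reported here. Alternatives were DESeq2 size factors, library totals, DESeq2 (1.42.0), limma voom (3.58.1), no filter, a filter of 1 CPM in 3 libraries, a replicate block, a fit of the compared libraries alone, and each library left out in turn. Libraries of 1 group differed beyond sampling noise (chi-square per degree of freedom 49.9 to 218).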

Additional observations from a re-analysis of the deposited data

How the results depend on the processing

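Of the called members, 8 (Ccl2, Ccl6, Ccl7, Cxcl2, Cxcl9, Cxcl12, Cxcl14 and Cx3cl1) were called in both arms under every alternative run. Leaving out 1 library gave 4 to 6 higher and 8 to 13 lower members in the siRNA arm and 3 to 6 higher and 7 to 8 lower in the mASO arm, where the 3 came without mASO Scrbl 2. Library totals gave 3 higher members in the mASO arm, and over all genes 1655 higher and 7266 lower (siRNA arm) and 1525 and 7939 (mASO arm), in place of 3515, 3675, 3344 and 3542. With library totals the log2 ratio of summed CPM was −1.23 in place of −0.72 for myeloid-attracting and 0.53 in place of 1.02 for homeostatic members in the siRNA arm. In the mASO arm it was −1.05 in place of −0.46 for myeloid-attracting, 0.87 in place of 1.45 for homeostatic and 0.56 in place of 1.14 for interferon-linked members. The cause was not tested.

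For the comparisons in which 0 members were called, counts over all genes were small and depended on the tool. For the difference of the arms edgeR gave 1 higher and 0 lower, DESeq2 44 and 17, voom 2 higher, no filter 2 and 1, the 1 CPM filter 2 higher, the replicate block 0, and leaving out a library 0 to 8 higher and 0 to 3 lower. For the controls edgeR gave 0 higher and 2 lower, DESeq2 24 and 55, no filter 2 and 5, library totals 3 higher, and leaving out a library 0 to 4 and 0 to 9. For the STAT3 groups edgeR gave 0 and 0, DESeq2 59 and 19, no filter 5 and 1, and leaving out a library 0 to 5 and 0 to 2. The cause was not tested.

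Residuals of libraries with the same replicate number had correlations of −0.24 to 0.19, and libraries were therefore not treated as paired. With the replicate block, Cxcl1 in the siRNA arm (−1.43, edgeR adjusted p = 0.0554) and Cxcl13 in the mASO arm (−1.80, 0.0819) were not called, leaving 6 higher and 9 lower members (siRNA arm) and 5 and 7 (mASO arm). Members under about 100 counts (Ccl11, Cxcl5 and Xcl1) are limited by depth.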

Other observations

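The 9 members that did not pass the low-count filter held 0 to 50 counts over all 12 libraries. Ccl26 had 0 counts in each. Ccl20, a ligand of CCR6, had 12 counts in siCntrl and 0 in siSTAT3, at least 2.24-fold lower with 3 counts over the group as the floor (1.33 without siSTAT3 1, and up to 2.59 without siCntrl 1). It had 2 counts in mASO Scrbl and 7 in mASO STAT3. Ccl28, an epithelial mucosal ligand, had 6 and 1 counts (siRNA arm) and 2 and 14 (mASO arm), control first, the latter a ratio of 12 (95% counting interval 2.76 to 109), and 7.91 without mASO STAT3 3. Ccl12, a CCR2 ligand of mice, had 23 and 3 counts and 19 and 1 counts. Cxcl17 had 19 and 0 counts and 17 and 2 counts, of which mASO Scrbl 3 held 14. Ccl17, a dendritic cell ligand, had 13 and 2 counts and 14 and 21 counts. Over 8 comparisons of Ccl12, Ccl17, Ccl20, Ccl28 and Cxcl17 the smallest exact two-sided permutation p was 0.1, the smallest that 3 libraries against 3 allow (0.16 after Benjamini-Hochberg adjustment over the 8). Cxcl3, a neighbour of Cxcl1 and Cxcl2, had 8 and 0 counts and 4 and 0 counts, and Cxcl15 had 1 count in each control group.

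Pf4, a platelet chemokine gene outside the naming rule, fell in both arms, from 7.89 ± 2.97 to 1.69 ± 0.825 CPM and from 3.91 ± 0.618 to 1.70 ± 0.528 CPM (SD, n = 3), log2 fold changes of −2.22 ± 0.38 and −1.20 ± 0.37 (edgeR adjusted p = 0.000342 and 0.0171). Its neighbour Ppbp, which platelets also store, did not pass (0.26 ± 0.58 and 0.11 ± 0.59, edgeR adjusted p = 0.736 and 0.898).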
